A study of Canis lupus familiaris with 12 samples.

Results

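Transcripts of ion channels, calcium pumps, aquaporins and connexins were followed in MDCK cells, an established line of dog kidney epithelial cells. Members were chosen by gene symbol, from the name families of potassium, sodium, calcium, chloride, TRP, polycystin, ATP-gated, store-operated, volume-regulated and mechanosensitive channels, with calcium ATPases, IP3 receptors, aquaporins and connexins. A mean of at least 0.2 TPM over the 12 libraries was also required. TPM, a transcript level corrected for gene length and library total, is the scale of levels below unless CPM, counts scaled to library size, is named. Of 31121 gene IDs, 13022 carried a symbol, 154 matched by symbol and 73 were kept as members. They bear 72 distinct symbols, because 2 IDs are both called CACNB1. Reads of that pair, and of other close paralogs, could have been divided between copies, so their values are uncertain. Just inside the minimum were P2RX7 (mean 0.203 TPM), GJA10 (0.272) and KCNMB3 (0.288). Just outside were KCNAB1 (0.183), KCNMB1 (0.168) and CACNB4 (0.156). SCNM1, a splicing factor, and TRPC4AP, a protein named for its association with a TRP channel, matched by name and are not channels.

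The cells were grown with 25 µM Yoda1, a small-molecule agonist of the mechanosensitive channel Piezo1, for 12 h (group T1) or 24 h (group T2). Control groups without Yoda1 were C1, given in the deposited sample sheet as 12 h, and C2, given as 24 h. Each of the 4 groups had 3 libraries, all of the MDCK line. What the control cells received in place of Yoda1 was not stated in the labels. The series is about Piezo1 activation, closure of gaps in an epithelial sheet and adhesion genes, and the comparisons here ask which channel and pump transcripts differed after Yoda1 at each time. PIEZO1 was not analysed here. No ID carried the symbol ORAI1, ORAI3 or PKD2, so these genes could not be followed, though they may be among the IDs without a symbol. AQP1, AQP3 and GJB1 lay below the minimum level.

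Library totals ran from 20709218 to 38889592 counts. The C2 libraries differed from each other more than the replicates of other groups did. A chi-square statistic per gene was 46.8 to 89.7 between C2 libraries, against 5.21 to 22.9 within the other groups. Whether replicates were separate cultures is not stated, and the p-values cover the variation among libraries, part of which may be technical. Markers of the labelled epithelial cell type were present: the summed level of 6 epithelial markers was 2161 to 2445 TPM in C1 and 2318 to 2420.25 TPM in C2. It was 1719.7 to 1901 TPM in T1 and 1471 to 1599 TPM in T2, and 2 of the 6 fell at 12 h and 4 of the 6 at 24 h. CDH1, which encodes E-cadherin, was among them at both times (log2 fold change -0.56 ± 0.09 SE, then -0.69 ± 0.09). This shift moved with every treatment difference below, and its part in them was not tested. In such bulk samples, fewer cells of a type and less RNA per cell cannot be told apart. The 7 fibroblast markers summed to 0.87 to 1.75 TPM over all libraries, mostly PDGFRA (mean 1.22 TPM), with DCN and LUM at 0 throughout. The 4 endothelial markers summed to 4.86 to 6.06 TPM in C1 and 4.63 to 5.5 TPM in C2, and to 3.72 to 5.12 TPM in T1 and 4.16 to 5.08 TPM in T2, mostly KDR (4.43 TPM). Among them VWF (mean 0.421 TPM) fell at 24 h (-0.94 ± 0.29, edgeR adjusted p = 0.0393), a call kept in 4 of 12 fits that left out 1 library and lost without T2 replicate 3 among others. The 2 immune markers summed to at most 0.06 TPM. The 3 neural markers summed to 10.9 to 14.2 TPM in C1 and 10.7 to 24.8 TPM in C2, and to 17.1 to 22.9 TPM in T1 and 16.9 to 19.7 TPM in T2, mostly MAP2 (15.7 TPM). Neither of the 2 tested neural markers was called. The marker lists were written with 11 epithelial, 5 endothelial, 5 immune and 5 neural symbols. Of these, 6, 4, 2 and 3 were found among the IDs, so those sums cover only part of each list. What these lists contribute to the differences below was not tested.

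Ion channels let ions flow down their gradients, and pumps such as the calcium ATPases spend ATP to rebuild those gradients. In an epithelial cell, calcium leaves the endoplasmic reticulum through IP3 receptors, is returned by SERCA pumps, is expelled by plasma membrane calcium pumps, and is replenished through ORAI channels that STIM proteins open when the store is low. Potassium, sodium and chloride channels set the membrane voltage and drive salt and water transport in the kidney tubule, aquaporins pass water, and connexins join neighbouring cells through gap junctions.

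Levels spanned more than the fold changes described later. Of the 73 members, 5 had a mean of at least 100 TPM, 28 of at least 10 TPM, 26 from 1 to 10 TPM and 19 under 1 TPM, with a median of 4.83 TPM. CLIC1, a chloride intracellular channel protein, was the most abundant at a mean of 708 TPM and made up 31.5% of the summed level. Also among the 5 were the SERCA pump ATP2A2 (177 TPM), the lipid scramblase and channel ANO6 (113 TPM) and the osmosensitive calcium channel TRPV4 (103 TPM). The summed level of all members was 2302 ± 125 TPM in C1 (mean ± SD, n = 3), 2275 ± 36.9 in T1, 2194 ± 110 in C2 and 2218 ± 39.96 in T2, so the group sums lay within the spread of the control libraries. In 70 of the 73 members the mean reached 0.2 TPM in each of the 4 groups, so these passed the level rule in control and treated cells alike. KCNK12 and KCNMB3 reached it in 3 groups and P2RX7 in 2.

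**Figure D1:**
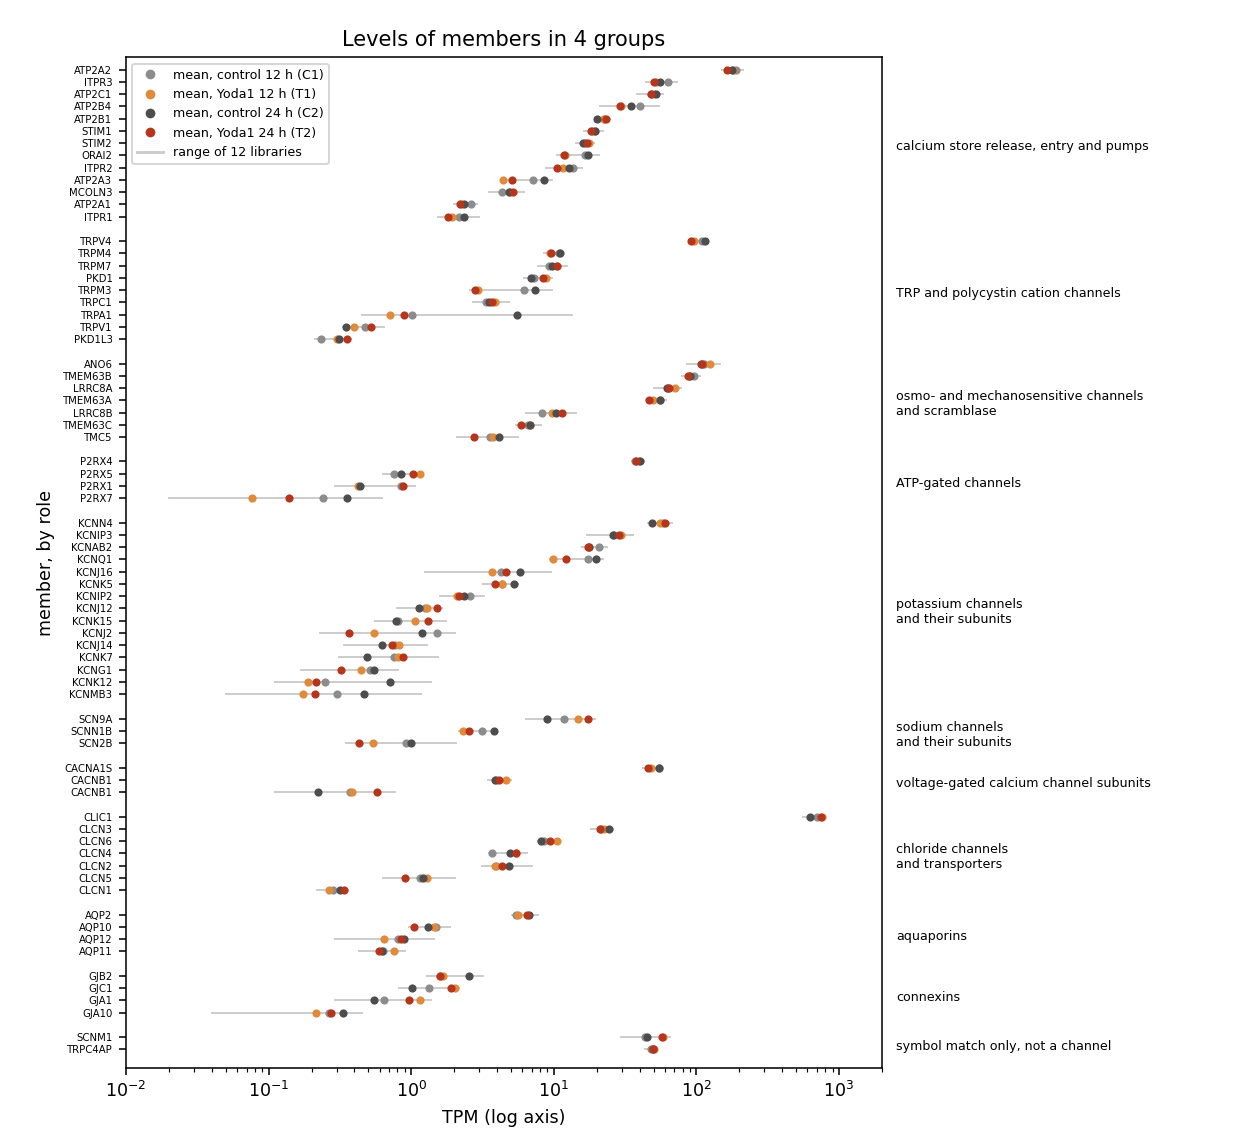
Mean level of members in TPM (horizontal, log axis) by role, with 1 point for each of the 4 groups and a grey line for the range of the 12 libraries. CLIC1 stands highest at a mean of 708 TPM, and the long grey line of TRPA1 runs from 0.45 to 13.4 TPM.

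After 12 h of Yoda1 4 members fell and none rose, and after 24 h 9 fell and 2 rose. The members that fell at both times were the TRP channel TRPM3, the potassium channel KCNQ1, the SERCA pump ATP2A3 and the store-operated channel ORAI2. Those that fell at 24 h alone by the test were TRPV4, TMEM63A, SCNN1B, KCNK5 and KCNJ2, and those that rose at 24 h were SCN9A and GJC1. A member was called when edgeR's quasi-likelihood test, adjusted by Benjamini-Hochberg over all 14169 genes tested, gave an adjusted p under 0.05. Of the 73 members, 69 passed the filter on low counts and were tested; KCNK12, KCNMB3, GJA10 and the rarer CACNB1 ID were not.

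These counts were close to those of genes at large. At 12 h 5.8% of tested members were called, against 6.99% of all genes tested, of which 3.01% were higher and 3.97% lower. At 24 h it was 15.9% of members, against 18.6% of all genes tested, 8.96% higher and 9.61% lower. The median log2 fold change of the tested members was -0.04 at 12 h and -0.125 at 24 h, beside 0.006 and -0.015 for all genes tested. At unadjusted p under 0.05, 20 members differed at 12 h, 5 of them higher, and 22 at 24 h, 6 of them higher. The share of all genes tested at that unadjusted threshold was not computed, here or for the unadjusted counts below. The shares above are at adjusted p and cannot be set beside these counts. At 12 h DESeq2 added CLCN4 as higher, and its further calls, all lower, included ITPR3, KCNJ2, TMEM63A, TRPM4 and TRPV4. At 24 h it added PKD1 as higher and CACNA1S, TRPA1 and TRPM4 as lower. DESeq2 also called more of all genes tested, 11.6% at 12 h and 22.9% at 24 h. With library size as the only scaling, the members split into 1 higher and 4 lower at 12 h and 4 higher and 9 lower at 24 h. That setting called 8.86% of all genes tested at 12 h and 19.6% at 24 h. Of those calls 59.4% and 57.1% were higher. On log2(TPM + 1) with limma the 24 h split was 4 higher and 8 lower. There 17% of all genes tested were called, 59.5% of those calls higher. The 4 members that fell at both times compare with 2.43% of all genes tested that were called lower in both comparisons, and no member rose in both, where 2% of all genes tested did.

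The libraries of T1 and C1 did not overlap in CPM for 21 of 69 tested members (30.4%), 5 above and 16 below. The share was 32.7% for all genes tested, 16.4% above and 16.3% below. Between T2 and C2 there was no overlap for 23 members (33.3%), 8 above and 15 below, against 32.8% of all genes tested, 16.6% above and 16.2% below. The sign of the fold change was shared by both times in 53 of 69 members. Most changes were small: among called members only TRPM3 at 12 h and TRPM3 and KCNJ2 at 24 h moved at least 2-fold. The count of 4 at 12 h varied with single libraries. It was 2 without C1 replicate 1, 2 without C1 replicate 3 and 1 without T1 replicate 1. Without T1 replicate 3 edgeR called 0, with 15 at unadjusted p under 0.05. It was 8 without T1 replicate 2, 10 without C2 replicate 1 and 9 without C2 replicate 2. At 24 h, 7 members in place of 11 were called when C2 replicate 3 or T2 replicate 2 was left out, and 6 when T2 replicate 3 was. Shares of all genes called in these fits are not given here. The counts therefore do not show a change particular to the members.

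Single omissions also brought members in. At 12 h the fit without T1 replicate 2 added members as lower, among them CACNA1S, KCNN4, TMEM63A and TRPM4, and KCNN4 then had -0.35 in place of -0.16. The fits without C2 replicate 1 or C2 replicate 2, libraries in neither group of that comparison, both added CLCN4, KCNJ2, TMEM63A, TRPM4 and TRPV4, and the first of them ITPR3. CLCN4 was added without C2 replicate 3, and CLCN4 and KCNJ2 without T2 replicate 1. ITPR3 was added without C1 replicate 2. At 24 h the fit without C2 replicate 1 added GJA1 and SCN2B, the fit without C2 replicate 2 added KCNK12, which the full fit had not tested, P2RX1, PKD1, TMC5 and TRPA1, and the fit without T1 replicate 2 added CACNA1S.

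**Figure D2:**
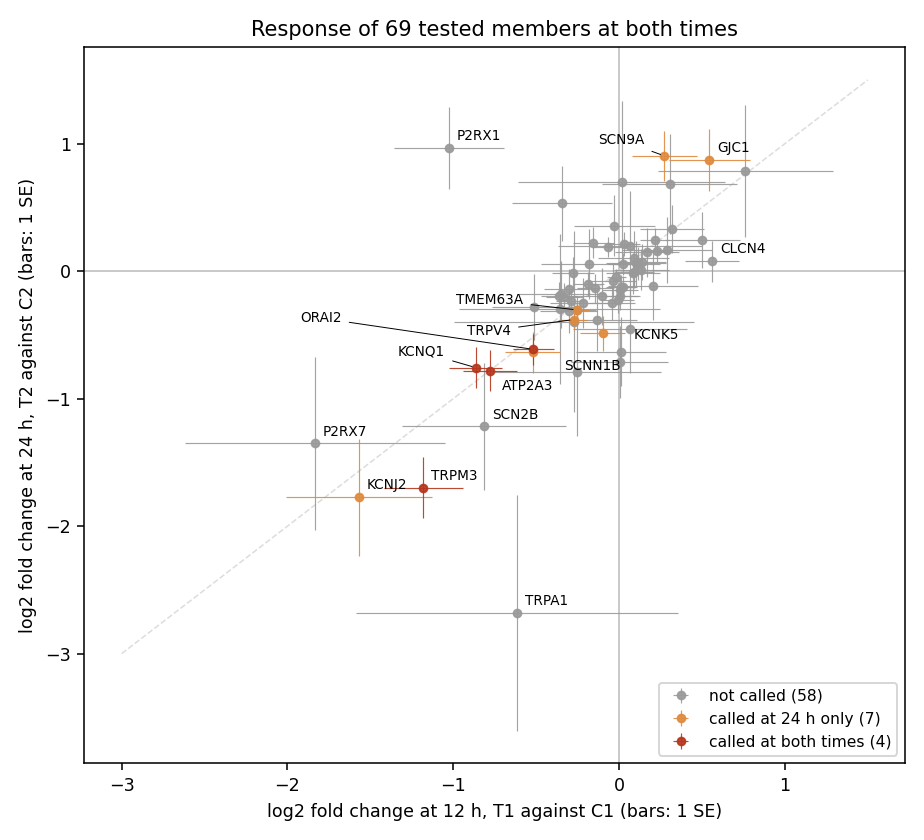
Log2 fold change of each of the 69 tested members at 12 h (horizontal) against 24 h (vertical), with bars of 1 SE and a dashed line where both are equal. The 4 members called at both times lie low on both axes, and P2RX1 lies apart, at -1.03 at 12 h and 0.97 at 24 h.

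TRPM3, a calcium-permeable channel opened by heat and by the steroid pregnenolone sulfate, had the largest fall of any called member at 12 h. Its level was 5.33, 6.17 and 7.01 TPM in the C1 libraries and 2.6, 2.81 and 3.45 TPM in T1. In C2 it was 9.74, 4.79 and 7.65 TPM, and in T2 3.01, 2.7 and 2.75 TPM. All 6 treated libraries lay below all 6 control libraries. The log2 fold change was -1.18 ± 0.24 (SE) at 12 h (edgeR adjusted p = 0.0138) and -1.70 ± 0.24 at 24 h (adjusted p = 0.000806). The 24 h call held without each library in turn, and the 12 h call was lost without C1 replicate 3, T1 replicate 1 or T1 replicate 3 (highest adjusted p = 0.0687). The difference between the responses was -0.52 on the log2 scale (95% interval -1.24 to 0.20) and did not pass (edgeR adjusted p = 0.648).

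KCNQ1, a voltage-gated potassium channel of epithelia and heart, measured 15.1, 19.3 and 17.3 TPM in C1 and 10.3, 9.42 and 9.92 TPM in T1. The C2 libraries held 22.0, 15.1 and 22.2 TPM and the T2 libraries 13.6, 11.8 and 10.9 TPM. Treated and control libraries did not overlap at either time. KCNQ1 had fallen by 0.87 ± 0.16 (log2) by 12 h (edgeR adjusted p = 0.00934) and by 0.76 ± 0.16 at 24 h (adjusted p = 0.00665). Only the omission of T1 replicate 3 among the single libraries ended its 12 h call (adjusted p = 0.0518).

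ATP2A3 encodes SERCA3, a pump that returns calcium to the endoplasmic reticulum. It stood at 7.56, 6.99 and 6.74 TPM in C1, 4.27, 4.49 and 4.42 TPM in T1, 9.70, 6.18 and 9.67 TPM in C2, and 5.29, 5.19 and 4.84 TPM in T2. Again no treated library reached a control library of its time. The fall was 0.78 on the log2 scale at each time (SE 0.16, edgeR adjusted p = 0.0157 and 0.00585). ORAI2, a pore subunit of the store-operated calcium channel, was at 15.4, 15.7 and 18.2 TPM in C1 and 11.8, 12.1 and 12.4 TPM in T1. It was at 20.6, 14.3 and 17.1 TPM in C2 and 12.5, 10.5 and 12.1 TPM in T2. The log2 fold change of ORAI2 was -0.52 ± 0.12 at 12 h and -0.61 ± 0.12 at 24 h, without overlap of libraries (edgeR adjusted p = 0.0272 and 0.00521). The 12 h call of ORAI2 was lost when any one of the 6 libraries compared was left out (highest adjusted p = 0.113) and on log2(TPM + 1) with limma. That of ATP2A3 was lost without C1 replicate 1, C1 replicate 2, T1 replicate 1 or T1 replicate 3 (highest adjusted p = 0.0722). Both 24 h calls held without each library in turn.

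**Figure D3:**
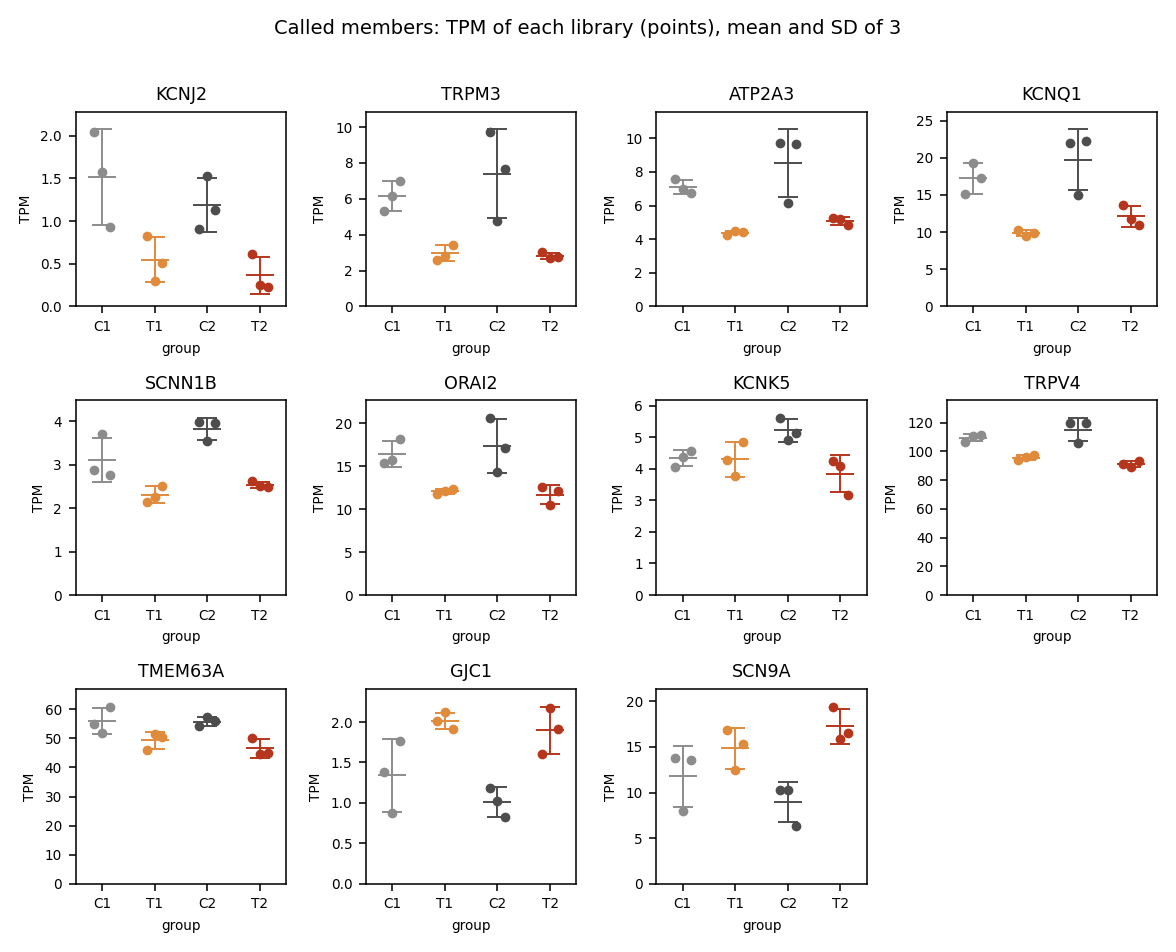
Level in TPM (vertical, from 0) of the 11 called members in each library (points) of the groups C1, T1, C2 and T2, with the mean and SD of 3 libraries. For TRPM3 every T1 and T2 library lies at or below 3.45 TPM and every control library at or above 4.79 TPM.

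The remaining store, entry and pump genes were not called by edgeR at either time. Of the 13 genes of this role all were tested, and 2 fell at each time, those just described, with a median log2 fold change of -0.219 at 12 h and -0.151 at 24 h. ATP2A2, or SERCA2, made up 95.4% of the summed SERCA level, so the fall of ATP2A3 was a small part of the SERCA sum. That sum was 198 ± 31.9 TPM in C1, 186 ± 15.05 in T1, 187 ± 30.01 in C2 and 172 ± 15.9 in T2. ATP2A2 itself differed by -0.14 at 12 h (95% interval -0.38 to 0.10) and by -0.13 at 24 h (-0.38 to 0.11).

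Among the IP3 receptors, the release channels of the store, ITPR3 led at a mean of 55.3 TPM. It was 65.4, 52.8 and 72.6 TPM in C1 and 53.9, 50.5 and 51.3 TPM in T1, a log2 fold change of -0.36 ± 0.11 that missed the threshold (edgeR adjusted p = 0.0637). With the replicate number as a block, which the 12 h libraries were taken to share, ITPR3 passed it (adjusted p = 0.0483). At 24 h its difference was -0.20 (95% interval -0.43 to 0.04). ITPR2 had -0.31 at each time (intervals -0.67 to 0.06 and -0.68 to 0.05), and ITPR1 -0.22 and -0.25 with intervals that also included 0.

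The store sensors STIM1 (mean 18.9 TPM) and STIM2 (16.9 TPM) had log2 fold changes between -0.13 and 0.06, and their 95% intervals reached no further than -0.31 or 0.25. Of the plasma membrane pumps, ATP2B1 differed by -0.07 at 12 h and 0.19 at 24 h (interval 0.02 to 0.36, edgeR adjusted p = 0.116). ATP2B4 differed by -0.51 at 12 h, close to the -0.52 of ORAI2, and by -0.28 at 24 h. It ranged from 20.95 to 54.7 TPM among the control libraries, and its intervals were wide (-1.08 to 0.06 at 12 h). The Golgi pump ATP2C1, the calcium and manganese ATPase, differed by 0.01 and -0.15. MCOLN3, an endolysosomal cation channel, differed by 0.10 and 0.06.

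**Figure D4:**
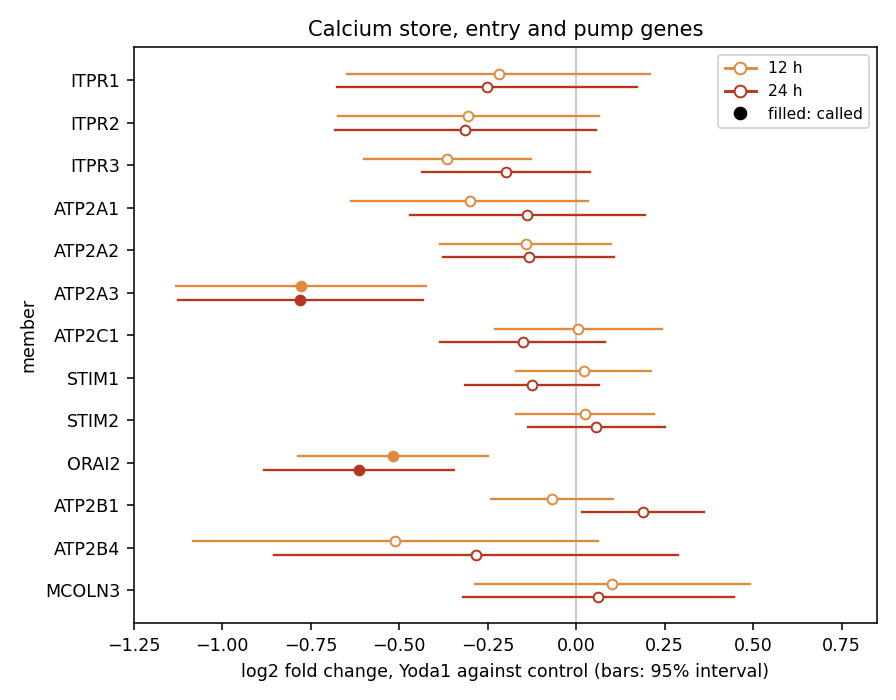
Log2 fold change, Yoda1 against control, of the 13 genes of calcium release, pumping and store-operated entry at 12 h and 24 h, with 95% intervals (lines) and filled points where the test called the gene. ATP2A3 and ORAI2 are filled at both times and lie between -0.78 and -0.52; the other points are open.

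TRPV4 was the most abundant TRP channel and holds a known role as a sensor of swelling, warmth and flow in tubule cells. It read 106, 111 and 111 TPM in C1, 93.7, 95.8 and 97.1 TPM in T1, 119, 106 and 120 TPM in C2, and 91.0, 89.1 and 93.4 TPM in T2. Every treated library was below every control library, although the shift was small. TRPV4 fell by 0.38 ± 0.08 on the log2 scale at 24 h (edgeR adjusted p = 0.00606), and its 12 h value was -0.27 ± 0.08 (adjusted p = 0.0546).

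Of the 9 TRP and polycystin members, 1 fell at 12 h and 2 at 24 h, and none rose. TRPM4, a calcium-activated monovalent cation channel, had -0.29 and -0.24 (edgeR adjusted p = 0.0584 and 0.0701), with treated libraries at 8.57 to 9.89 TPM and controls at 10.5 to 11.2 TPM. PKD1, whose product polycystin-1 is a large receptor-like protein of the primary cilium, had 0.22 and 0.25 (adjusted p = 0.157 and 0.0655), with T1 and T2 libraries above the controls of their time. TRPM7, a channel fused to a kinase, had 0.11 and 0.06, and TRPC1 0.14 and 0.01, with intervals that included 0. TRPM4, TRPM7 and TRPC1 are outside the naming rule and were chosen after their values were seen, as were P2RX1, P2RX5, P2RX7, TRPA1, CLCN4, CLCN6, GJB2, KCNJ16, SCN2B, LRRC8B and TMEM63C below.

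TRPA1, an irritant-sensing channel, was uneven among controls. It measured 0.77, 1.40 and 0.88 TPM in C1, 0.76, 0.64 and 0.72 TPM in T1, 13.4, 0.45 and 2.71 TPM in C2, and 1.12, 0.83 and 0.74 TPM in T2. The C2 libraries spanned both sides of T2. The 24 h log2 fold change of -2.68 ± 0.93 did not pass (edgeR adjusted p = 0.0745); it was -0.905 without C2 replicate 1, the high library, and -3.22 and called without C2 replicate 2 (adjusted p = 0.00393).

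The mechanosensitive and volume-regulated group held 7 members, of which 1 fell at 24 h and none was called at 12 h. TMEM63A belongs to the OSCA and TMEM63 family of stretch-activated channels. Its level was 54.9, 52.0 and 60.9 TPM in C1, 46.1, 51.4 and 50.6 TPM in T1, 54.3, 57.2 and 55.8 TPM in C2, and 50.2, 44.6 and 44.9 TPM in T2. Libraries of treatment and control were separate at both times by a narrow margin. TMEM63A fell by 0.30 ± 0.07 on the log2 scale at 24 h (edgeR adjusted p = 0.0139) and had -0.25 ± 0.07 at 12 h (adjusted p = 0.0571). Its 24 h call was lost without C2 replicate 3, T2 replicate 2 or T2 replicate 3 (highest adjusted p = 0.0708).

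Its relative TMEM63B, at a mean of 90.2 TPM, had -0.19 (95% interval -0.39 to 0.02) and -0.10 (-0.30 to 0.10), and TMEM63C 0.01 and -0.20. LRRC8A, the obligatory subunit of the volume-regulated anion channel, had 0.09 (-0.17 to 0.35) and -0.01 (-0.27 to 0.25), and its partner LRRC8B 0.17 and 0.15. ANO6, which exposes phosphatidylserine when calcium rises, had 0.08 (-0.27 to 0.43) and -0.02 (-0.37 to 0.33). TMC5, a transmembrane channel-like protein, had 0.01 and -0.63 (edgeR adjusted p = 0.123).

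Among the 4 ATP-gated channels none was called at either time by edgeR, with 3 and 1 at unadjusted p under 0.05. P2RX4, the most abundant at a mean of 38.7 TPM, had a log2 fold change of 0.01 (95% interval -0.19 to 0.21) and -0.12 (-0.32 to 0.07). P2RX1 was low, at 8 to 27 counts per library. It had 0.72, 0.74 and 1.07 TPM in C1, 0.29, 0.48 and 0.51 TPM in T1, 0.45, 0.54 and 0.32 TPM in C2, and 0.94, 0.95 and 0.74 TPM in T2. Treated libraries were thus below controls at 12 h and above them at 24 h, while C2 also lay below C1. At 24 h P2RX1 was called without C2 replicate 2 (edgeR adjusted p = 0.046) and on log2(TPM + 1) with limma. P2RX7, at 1 to 52 counts per library, had -1.83 and -1.35 (edgeR adjusted p = 0.18 and 0.187), and P2RX5 0.50 and 0.24.

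The potassium channels formed the largest role, with 15 members, 13 of them tested. KCNQ1 fell at 12 h, and KCNQ1, KCNK5 and KCNJ2 fell at 24 h; none rose. KCNJ2, the inward rectifier Kir2.1, had 2.04, 1.58 and 0.93 TPM in C1, 0.83, 0.30 and 0.51 TPM in T1, 0.91, 1.53 and 1.13 TPM in C2, and 0.61, 0.25 and 0.23 TPM in T2. No treated library reached its controls, but these values rest on 6 to 53 counts per library. KCNJ2 fell by 1.77 ± 0.46 on the log2 scale at 24 h (edgeR adjusted p = 0.0188), and its 12 h value was -1.57 ± 0.44 (adjusted p = 0.0508). The 24 h call was lost without T2 replicate 2 or T2 replicate 3 (highest adjusted p = 0.0949).

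KCNK5 encodes TASK-2, a background potassium channel of the proximal tubule. It was 4.07, 4.37 and 4.58 TPM in C1 and 4.29, 3.76 and 4.85 TPM in T1, which overlapped. In C2 it was 5.61, 4.92 and 5.12 TPM and in T2 4.26, 4.09 and 3.18 TPM, which did not. It fell by 0.49 ± 0.13 on the log2 scale at 24 h (edgeR adjusted p = 0.0249), beside -0.10 (95% interval -0.39 to 0.19) at 12 h. The call was lost without C2 replicate 1, C2 replicate 3 or T2 replicate 3 (highest adjusted p = 0.122), and on log2(TPM + 1) with limma.

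KCNN4, the calcium-activated potassium channel KCa3.1 and the most abundant of the role, was 57.3, 58.0 and 59.2 TPM in C1, 45.7, 67.5 and 53.4 TPM in T1, 48.9, 50.7 and 47.3 TPM in C2, and 60.1, 60.4 and 58.8 TPM in T2. At 12 h the T1 libraries lay on both sides of C1 (-0.16, 95% interval -0.42 to 0.11). At 24 h T2 lay above C2, but near C1, and the difference of 0.22 did not pass (edgeR adjusted p = 0.232). KCNJ16, the rectifier Kir5.1, ranged from 1.25 to 9.51 TPM in T2 and from 1.78 to 8.62 TPM in C2, so its -0.40 ± 0.71 at 24 h is not distinguishable from 0.

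The sodium channel role had 4 tested members, none called at 12 h, and 1 higher and 1 lower at 24 h. SCN9A encodes the pore of the voltage-gated channel Nav1.7, best known from sensory neurons. It had 13.8, 7.95 and 13.6 TPM in C1, 16.9, 12.4 and 15.3 TPM in T1, 10.3, 10.2 and 6.37 TPM in C2, and 19.4, 15.9 and 16.5 TPM in T2. The 12 h libraries overlapped, and every T2 library was above every C2 library. SCN9A rose by 0.90 ± 0.20 on the log2 scale at 24 h (edgeR adjusted p = 0.00897), a call that held without each library in turn, and had 0.27 ± 0.19 at 12 h (adjusted p = 0.442).

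SCNN1B, the beta subunit of the epithelial sodium channel ENaC, had 2.87, 3.70 and 2.77 TPM in C1, 2.15, 2.26 and 2.52 TPM in T1, 3.99, 3.54 and 3.95 TPM in C2, and 2.62, 2.51 and 2.49 TPM in T2. Treated and control libraries were separate at both times. It fell by 0.64 ± 0.16 on the log2 scale at 24 h (edgeR adjusted p = 0.0176) and had -0.52 ± 0.17 at 12 h (adjusted p = 0.0762). The 24 h call was lost without C2 replicate 3, T2 replicate 2 or T2 replicate 3 (highest adjusted p = 0.07). SCN2B, an accessory subunit, had -0.81 and -1.22 (edgeR adjusted p = 0.353 and 0.108), the latter against C2 libraries of 0.35, 2.07 and 0.58 TPM.

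No voltage-gated calcium channel subunit or chloride channel was called by edgeR at either time; 1 and 1 of the 2 tested calcium channel genes, and 2 and 2 of the 7 chloride genes, had an unadjusted p under 0.05. CACNA1S, a pore subunit known from skeletal muscle, was present at a mean of 50.9 TPM. It read 53.5, 57.7 and 52.9 TPM in C1, 42.5, 56.0 and 46.7 TPM in T1, 55.1, 53.7 and 55.4 TPM in C2, and 45.0, 45.5 and 46.5 TPM in T2. The 24 h groups were separate, but -0.31 ± 0.11 did not pass (edgeR adjusted p = 0.0724). CLIC1 had 0.03 at 12 h and 0.21 at 24 h (edgeR adjusted p = 0.148), and on log2(TPM + 1) limma called it at 24 h (0.26, adjusted p = 0.0361). Its C2 libraries, at 558 to 662 TPM, were the lowest group, and its T2 libraries, at 702 to 771 TPM, overlapped C1.

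CLCN3, an endosomal chloride and proton exchanger, had -0.01 (95% interval -0.23 to 0.21) and -0.23 (-0.44 to -0.01, edgeR adjusted p = 0.137). Its relative CLCN4 was 3.63, 3.5 and 3.85 TPM in C1 and 5.11, 5.45 and 5.63 TPM in T1. The 12 h difference of 0.56 ± 0.16 just missed the threshold (edgeR adjusted p = 0.0566), and at 24 h, where C2 was already at 4.04 to 5.84 TPM, it was 0.08. The lysosomal exchanger CLCN6 had 0.23 and 0.16 (edgeR adjusted p = 0.148 and 0.231).

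The aquaporins were low and gave no call by edgeR at either time, with 0 of 4 at unadjusted p under 0.05. AQP2, the vasopressin-regulated water channel of the collecting duct, led the role at a mean of 6.05 TPM. It was 5.68, 5.58 and 5.08 TPM in C1 and 6.05, 5.34 and 5.50 TPM in T1, and 7.71, 6.22 and 6.04 TPM in C2 and 6.41, 6.63 and 6.30 TPM in T2. The groups overlapped, with log2 fold changes of -0.04 (95% interval -0.34 to 0.27) and -0.07 (-0.37 to 0.22).

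Of the connexins, 4 were tested, none was called at 12 h and 1 rose at 24 h. GJC1, connexin 45, had 1.38, 0.87 and 1.77 TPM in C1, 2.01, 2.12 and 1.91 TPM in T1, 1.19, 1.02 and 0.82 TPM in C2, and 1.60, 2.18 and 1.92 TPM in T2. Treated libraries lay above controls at both times. GJC1 rose by 0.87 ± 0.24 on the log2 scale at 24 h (edgeR adjusted p = 0.0265) and had 0.54 ± 0.24 at 12 h (adjusted p = 0.2). The 24 h call was lost without C2 replicate 3, T2 replicate 2 or T2 replicate 3 (highest adjusted p = 0.108), and when only the 6 libraries of 24 h were fitted.

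GJA1, connexin 43, was low, with 0.32, 0.41 and 1.19 TPM in C1, 1.06, 1.04 and 1.37 TPM in T1, 1.01, 0.34 and 0.29 TPM in C2, and 0.69, 0.92 and 1.3 TPM in T2. One control library of each time lay within the treated range, and the differences of 0.76 ± 0.53 and 0.79 ± 0.52 did not pass (edgeR adjusted p = 0.423 and 0.32). Without C2 replicate 1, the high control, GJA1 was called at 24 h with 1.59 (edgeR adjusted p = 0.0401). GJB2, connexin 26, had 0.00 and -0.71 (edgeR adjusted p = 0.997 and 0.0997).

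**Figure D5:**
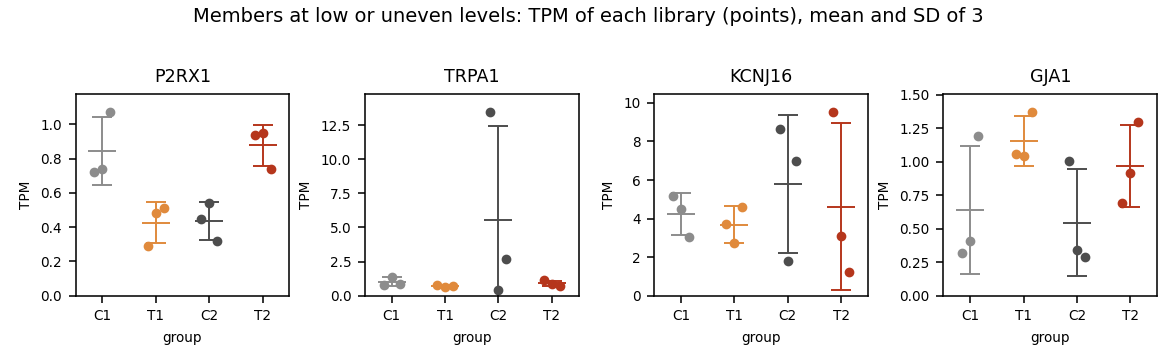
Level in TPM (vertical, from 0) of P2RX1, TRPA1, KCNJ16 and GJA1 in each library (points) of the groups C1, T1, C2 and T2, with the mean and SD of 3 libraries. TRPA1 reached 13.4 TPM in a single C2 library, and P2RX1 was lower in T1 and C2 than in C1 and T2.

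The response of no member differed between 12 h and 24 h by edgeR's test of that difference. That test called 0.155% of all genes tested, and 3 members had an unadjusted p under 0.05. DESeq2 and limma on log2(TPM + 1) also called 0 members, beside 1.61% and 0.0917% of all genes tested. The 7 members called at 24 h alone are therefore not shown to respond differently at the 2 times. Between the control groups, C2 against C1, edgeR again called 0 members, beside 0.162% of all genes tested. There 7 had an unadjusted p under 0.05. DESeq2 and limma on log2(TPM + 1) called 0 members, beside 1.82% and 0.0353% of all genes tested. Without C2 replicate 2 edgeR called 2 higher, ATP2A3 and TRPA1. C2 and C1 libraries did not overlap for 8 members (11.6%), against 14.3% of all genes tested.

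Genes that work with these channels were counted from lists written for this tissue. The counts stand beside 3.01% higher and 3.97% lower among all genes tested at 12 h, and 8.96% higher and 9.61% lower at 24 h, and beside medians over all genes tested of 0.006 and -0.015. Of 19 tested genes of calmodulin, calcineurin, NFAT and CaM kinases, 2 rose and 1 fell at 12 h and 3 rose and 2 fell at 24 h, with a median log2 fold change of 0.106 and then 0.06. RCAN1, a calcineurin regulator whose transcription calcineurin itself drives, rose by 0.40 ± 0.07 and then 0.51 ± 0.07 on the log2 scale (edgeR adjusted p = 0.00442 and 0.00052), from 186 ± 7.17 to 246 ± 14.9 CPM at 12 h. The kinase subunit CAMK2D fell by 0.53 ± 0.13 and by 0.44 ± 0.13. Of 12 tested genes of phospholipase C and Gq signalling edgeR called 0 at 12 h (1 at unadjusted p under 0.05, 0 by DESeq2). At 24 h 3 were higher in T2 than in C2: PLCB1 (0.91 ± 0.19), ITPKA (0.71 ± 0.22) and PLCB3 (0.40 ± 0.08). PLCB1 averaged 7.37 CPM in C1, 7.84 in T1, 4.23 in C2 and 7.93 in T2. PLCB3 averaged 105, 99.6, 82.5 and 109 CPM in the same order. For both genes T2 thus lay near C1, and C2 was the lowest group. Among 9 genes of mitochondrial calcium, the exchanger SLC8B1 rose at 12 h (0.64 ± 0.12), and at 24 h the uniporter pore MCU rose (0.38 ± 0.10) and its regulator MICU2 fell by 0.32 ± 0.09.

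The sodium pump, which maintains the gradients that channels use, had 6 tested genes, 1 lower at 12 h and 3 lower at 24 h, where 3.97% and 9.61% of all genes tested were lower. Its median log2 fold change was -0.342 and then -0.634. Its beta subunit ATP1B1 fell by 0.84 ± 0.14 on the log2 scale at 24 h (edgeR adjusted p = 0.00172), and the pump regulator FXYD3 fell by 2.17 ± 0.37 at 12 h and by 1.09 ± 0.33 at 24 h. FXYD3 was low, with means of 1.28 CPM in C1, 0.281 in T1, 1.77 in C2 and 0.832 in T2. Its 24 h call was kept in 7 of 12 fits that left out 1 library. That call was lost with the replicate block (edgeR adjusted p = 0.0746) and when only the 24 h libraries were fitted. Of 6 tested partners of store-operated entry edgeR called 0 at 12 h (0 at unadjusted p under 0.05, 0 by DESeq2), and at 24 h SELENOK rose (0.36 ± 0.08) and SPPL3 fell by 0.31 ± 0.09. Of 4 exchangers and other store channels, SLC24A2 fell at both times, and TMBIM6 and TMBIM4 fell at 24 h. The list of other channel genes had 10 tested genes, among them TRPC4AP, which is a member and not a channel. The names of the rest lie outside the selected families. Of this list, the cyclic nucleotide-gated channel CNGA1 fell at both times (by 0.62 ± 0.16 and 0.68 ± 0.16), and CALHM1 fell at 24 h by 0.93 ± 0.18. The calls of RCAN1 at both times, FXYD3 at 12 h, and PLCB1, PLCB3, ATP1B1, TMBIM6, TMBIM4 and CALHM1 at 24 h held without each library in turn. Every other call named from these lists was lost without T1 replicate 3 at 12 h or without T2 replicate 3 at 24 h. For SLC8B1 at 12 h and CNGA1 at 24 h that was the only such library. The call of ITPKA at 24 h was kept in 3 of 12 such fits, that of SPPL3 at 24 h in 5 of 12 and that of CNGA1 at 12 h in 4 of 12. SLC24A2 (mean 0.224 TPM) was kept in 6 of 12 at 12 h and 8 of 12 at 24 h. CAMK2D was kept in 7 of 12 at each time, as were MCU and MICU2 at 24 h. On log2(TPM + 1) with limma, SLC24A2 and CAMK2D were lost at both times and SPPL3 and MICU2 at 24 h. The replicate block ended the 24 h call of SLC24A2 (edgeR adjusted p = 0.0519). The 12 h call of CNGA1 was also lost with the replicate block (edgeR adjusted p = 0.0871) and on log2(TPM + 1) with limma.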

How the data were processed

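Stranded libraries of polyadenylated RNA were sequenced as 101 bp pairs, per the labels' protocols. The tools were RSEM 1.3.3, STAR 2.7.10b and fastp 0.23.4, per the submitters' processing notes. Genome build and annotation: not given in the sources used here. Expected counts per gene, not normalized and 91.1% of them whole, were deposited by the authors, as were TPM for the same IDs. Condition and time of each library came from the deposited sample sheet (unit: other). The given gene table is of another assembly, so no coordinates are printed.

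Expected counts were rounded, filtered with filterByExpr (14169 genes), scaled by TMM and fitted over all 12 libraries with 1 mean per group by edgeR 4.0.16 (R 4.3.3), robust quasi-likelihood, with Benjamini-Hochberg adjustment. The fit was tested on simulated data. SE is the absolute log2 fold change over the root of F. Alternatives were DESeq2 1.42.0, RLE or no composition scaling, no count filter, limma 3.58.1 on log2(TPM + 1) and log2(TPM + 0.1), 2 groups only, a replicate block, and each library left out. Totals of 20709218 to 38889592 counts limit members with few counts.

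Replicate numbers were checked as pairs by the correlation of deviations from group means. It was 0.153, 0.283 and 0.115 between C1 and T1, taken as paired on this ground alone, since the labels do not pair them. Between C2 and T2 it was 0.0631, -0.0767 and -0.0841, not taken as paired.

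Members and lists were chosen with earlier results of these data known. Named members were TRPM3, up to 14 called members in each direction per time, the most abundant member of each family, and a preset set of calcium, water, connexin and mechanosensitive genes. Up to 3 called genes were named per list, not in each case those with the largest change. Some results are not reported here, and the plot of levels leaves those members out.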

Additional observations from a re-analysis of the deposited data

Results flagged for a closer look

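P2RX1, an ATP-gated cation channel, had values of opposite sign at the 2 times, neither of which passed the threshold. All 3 T1 libraries lay below the 3 C1 libraries, and all 3 T2 libraries lay above the 3 C2 libraries. The 12 h log2 fold change was -1.03 ± 0.33 (edgeR adjusted p = 0.0798) and the 24 h value 0.97 ± 0.32 (adjusted p = 0.0522). The difference between the responses was 2.00 ± 0.46 on the log2 scale (unadjusted p = 0.000841, edgeR adjusted p = 0.117), which did not pass the threshold over all genes tested. C2 itself lay below C1 (-0.98 ± 0.32, edgeR adjusted p = 0.275). The gene had 8 to 27 counts per library.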

How the results depend on the processing

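With DESeq2, 11 members were called at 12 h, and with only the 6 libraries compared 9, in place of 4. The cause was not tested. Of all genes tested, DESeq2 called 11.6% at 12 h and 22.9% at 24 h, against 6.99% and 18.6% by edgeR. At 24 h DESeq2 and the fit of only the 6 libraries compared gave 15 and 9 calls in place of 11. Leaving out single libraries gave 0 to 10 calls at 12 h, 6 to 16 at 24 h, 0 for the difference between times and 0 to 2 for C2 against C1. Shares of all genes called are not given here for those fits or for the fits of 6 libraries. The other settings gave 3 to 5 calls at 12 h and 11 to 13 at 24 h. With the replicate block, 5 members were called at 12 h, ITPR3 added. The block likewise joined C2 and T2 replicates by number, although these were not taken as paired. At 24 h it called 12 members: GJC1 left and CACNA1S and CLCN3 joined. It changed no other member's call at these times. Among the 138 results of single members no called direction turned in any alternative run. RLE scaling or library size alone moved the median of all genes by at most 0.04 on the log2 scale. Limma on log2(TPM + 0.1), which also changes the measure and the model, moved it by 0.074 at 12 h. The members' 12 h median of -0.04 was 0.005 on log2(TPM + 1). Depth limits members such as P2RX7, KCNJ2 and P2RX1, and the uneven C2 libraries limit TRPA1 and GJA1.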
